A study of Mus musculus with 16 samples.

Results

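The genes described here are those of the major histocompatibility complex (MHC) and of antigen presentation: every entry whose symbol starts with H2-, together with B2m, Tap1, Tap2, Tapbp, Psmb8, Psmb9, Psmb10, Psme1, Psme2, Cd74, Ciita, Nlrc5 and Cd1d1. They were chosen by name, and 38 of the 17715 entries of the deposited table matched. RNA came from endothelial cells sorted by flow cytometry out of the lungs of female C57BL/6N mice. The time course follows Lewis lung carcinoma, a transplantable mouse lung tumour line, from implantation under the skin to spread: d0 is wild-type mice with no tumour, d15 mice bearing the primary tumour, d22 mice whose primary tumour had been removed, and d36 mice with metastases, all of the same strain and with no other allele or agent in the labels. Each of the 4 time points has 4 libraries (16 in all), called independent biological replicates by the submitters, and 1 of them, d36 replicate 1, is titled day 29 while its time point field reads d36. The unit is RPKM (reads per kilobase of transcript per megaread), which scales each gene by its length. The transcript behind each entry is not given, so comparisons of level between genes depend on it. Depth, read from the size of the smallest steps in the values, was about 93.4 to 152.1 mega reads per library, so that counting error was small for all but the genes under 1 RPKM.

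Class I MHC molecules carry peptides made inside the cell to CD8 T cells. A heavy chain pairs with beta-2 microglobulin (B2m), peptides are cut by the proteasome, whose interferon-inducible form contains Psmb8, Psmb9 and Psmb10 and is activated by Psme1 and Psme2, and they are pumped into the endoplasmic reticulum by Tap1 and Tap2 and loaded with the help of tapasin (Tapbp). Class II molecules present extracellular proteins to CD4 T cells. They are guarded by the invariant chain (Cd74), loaded with the help of H2-DM and held back by H2-O, and are transcribed under the master regulator Ciita, as class I genes are under Nlrc5. Endothelial cells line every vessel, display class I constitutively, and in the lung are among the non-immune cells that can also display class II.

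Promoters of class II and of class I genes are printed apart below and marked with different motifs. The RefSeq table (assembly GRCm38.p6) held 300-base promoters, 250 bases before to 50 after the start, for 26 of the 38 members. The CCAAT sequence, bound by NF-Y, stood on either strand in 20 of the 26 genes, against 41.1% of all 27025 genes in that table. Below are 60 bases of 6 class II promoters, each written along its own strand and ending at the reversed CCAAT (capitals, ATTGG). They lie at chr17:34287867-34287926 (minus strand) for the class II alpha chain H2-Aa, and on the plus strand at chr17:34305753-34305812 for the beta chain H2-Eb1, chr17:34092281-34092340 and chr17:34238793-34238852 for the chains of H2-O, and chr17:34153075-34153134 and chr17:34145104-34145163 for the beta chains of H2-DM. They are shown because a match to AACNNATG (capitals) stands a similar way ahead of ATTGG in 4 of them.
H2-Aa: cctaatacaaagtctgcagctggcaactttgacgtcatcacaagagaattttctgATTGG
H2-Eb1: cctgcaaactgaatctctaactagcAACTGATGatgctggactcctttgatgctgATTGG
H2-Oa: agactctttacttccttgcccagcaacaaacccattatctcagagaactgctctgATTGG
H2-Ob: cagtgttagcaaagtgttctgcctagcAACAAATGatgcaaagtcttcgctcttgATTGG
H2-DMb1: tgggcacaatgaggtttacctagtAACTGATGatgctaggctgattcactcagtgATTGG
H2-DMb2: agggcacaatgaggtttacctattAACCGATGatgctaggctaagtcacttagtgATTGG
The pair of AACNNATG and ATTGG with 15 to 30 bases between, searched on both strands, was in H2-Eb1, H2-Ob, H2-DMb1 and H2-DMb2 and in 0.152% of all genes of the table. The pair was picked after these sequences had been read, so its number is a description. The H2-DMb1 and H2-DMb2 windows share long stretches, while the levels of those genes, given further on, are far apart.

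For class I heavy chains other motifs are marked. They are shown in the classical genes H2-K1 (chr17:34000330-34000473, minus strand) and H2-D1 (chr17:35262908-35263050, plus strand). The non-classical H2-Q6 and H2-Q7 follow (chr17:35424661-35424804 and chr17:35439005-35439148, plus strand). The unmarked stretch cactgatg stands ahead of ATTGG in H2-D1, H2-Q6 and H2-Q7 and is close to the AACTGATG of H2-Eb1, so the classes are not set apart by these motifs. Capitals mark GGGATTCCC, a form of the site bound by NF-kB, and then ATTGG and CCAAT.
H2-K1: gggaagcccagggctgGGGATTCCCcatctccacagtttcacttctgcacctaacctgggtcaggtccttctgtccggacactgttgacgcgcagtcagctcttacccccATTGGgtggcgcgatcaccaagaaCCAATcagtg
H2-D1: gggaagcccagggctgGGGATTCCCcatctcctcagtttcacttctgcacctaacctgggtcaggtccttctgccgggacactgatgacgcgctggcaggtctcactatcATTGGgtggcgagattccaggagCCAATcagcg
H2-Q6: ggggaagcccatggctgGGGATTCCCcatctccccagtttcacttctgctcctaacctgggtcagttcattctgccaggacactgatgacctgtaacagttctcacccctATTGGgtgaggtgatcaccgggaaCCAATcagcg
H2-Q7: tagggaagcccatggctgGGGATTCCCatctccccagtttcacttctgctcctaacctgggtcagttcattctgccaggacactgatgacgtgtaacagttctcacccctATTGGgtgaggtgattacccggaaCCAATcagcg
GGGATTCCC was in these 4 members and in 0.414% of all genes. ATTGG followed by CCAAT after 10 to 25 bases was in 7 members, adding H2-Q4, H2-T22 and H2-Eb1, and in 1.13% of all genes. Both were also picked after the sequences had been read. Other motifs were searched on both strands. A GAAA followed after 2 bases by another GAAA, bound by interferon regulatory factors, was in B2m, H2-T22, H2-T23 and Psme1 (3.99% of all genes). Looser forms were not searched, such as the stretch tttcacttc of the class I windows above, so a gene without a match may still hold such a site. TTCNNNGAA was in H2-DMb2, H2-M3 and Psmb8 (9.55%), and GGGANTTCC was in H2-Aa and H2-Q4 (1.92%). Motifs can overlap and none was tested for binding. H2-T23 is printed whole (chr17:36032652-36032951, minus strand, with the GAAA pair, which lies on the opposite strand and so reads as TTTC pairs, and CCAAT in capitals), since its level fell at d36. Psmb9 (chr17:34187281-34187580, minus strand, ATTGG in capitals) is printed because Tap1 starts 226 bases away on the other strand, so that the windows of this proteasome gene and this transporter gene share 275 bases.
H2-T23: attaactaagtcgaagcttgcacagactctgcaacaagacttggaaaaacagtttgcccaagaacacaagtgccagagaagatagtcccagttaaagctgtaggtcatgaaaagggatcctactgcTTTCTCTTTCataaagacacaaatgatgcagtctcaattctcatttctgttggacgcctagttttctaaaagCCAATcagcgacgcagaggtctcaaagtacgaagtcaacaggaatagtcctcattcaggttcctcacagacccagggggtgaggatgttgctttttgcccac
Psmb9: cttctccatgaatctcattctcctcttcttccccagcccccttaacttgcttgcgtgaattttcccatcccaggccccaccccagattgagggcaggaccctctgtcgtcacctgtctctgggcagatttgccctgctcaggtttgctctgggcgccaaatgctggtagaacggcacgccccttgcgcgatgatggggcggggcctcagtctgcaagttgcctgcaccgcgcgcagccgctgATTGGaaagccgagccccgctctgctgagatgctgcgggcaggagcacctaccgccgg

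A minimum of 1 RPKM in 4 or more libraries was met by 31 of the 38 genes and by 14303 entries in all, which were tested together. The 7 that did not were H2-Q10, H2-Q1 and H2-Bl among the class I genes and Ciita, H2-Aa, H2-DMb2 and H2-Oa among the class II genes. Tests are limma's moderated test on log2(RPKM + 1), two-sided, with Benjamini-Hochberg adjustment over all entries tested and a threshold of 0.05; fold changes are on that scale, which understates the change of low genes.

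The libraries of 1 time point differed widely in these genes. One mouse without a tumour stood above all others: d0 replicate 1 was the highest of the 16 libraries for 26 of the 31 tested genes, against 7.68% of all entries tested. The 6 interferon-inducible GTPases on the lists (Gbp2, Gbp3, Gbp4, Igtp, Irgm1 and Iigp1) were each highest in the same library. Igtp had 177 RPKM there and 23.2 to 80.2 RPKM in the others, and Gbp4 had 104 RPKM there and 14.96 to 91.1 RPKM in the others. These 6 were picked out after their values were seen and do not stand for the interferon-gamma signalling list. Cxcl10 and Irf8 of that list were highest at d36. At the other end, d36 replicate 7 was the lowest of the 16 for 24 of the 31 genes, against 16.9% of all entries, with Igtp at 23.2 and Gbp4 at 14.96 RPKM. Within their own groups, d22 replicate 6 and d0 replicate 2 were each the lowest for 24 of the 31 genes, against 33.0% and 22.5% of all entries. What d0 replicate 1 and d36 replicate 7 do to a result is given beside it.

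**Figure D1:**
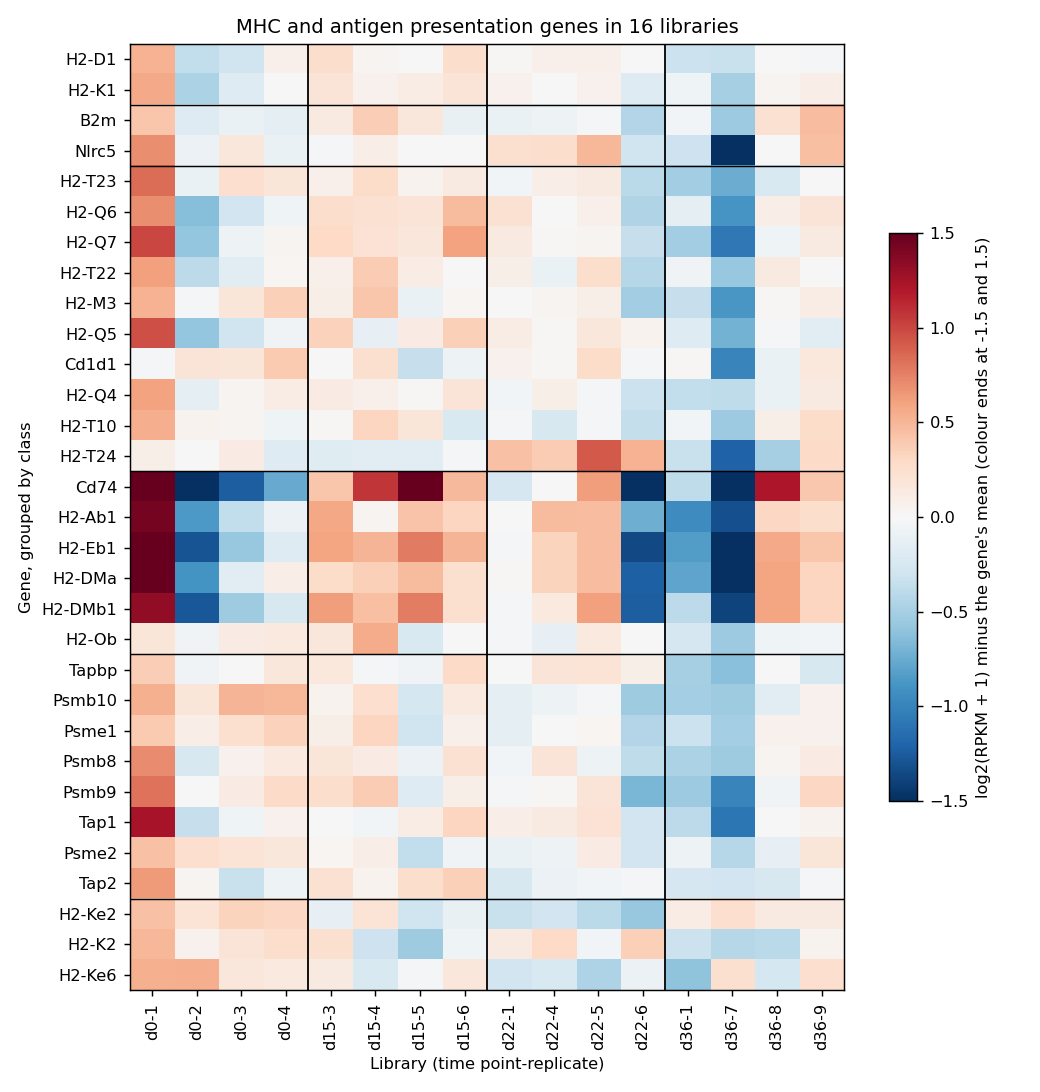
Each row is 1 of the 31 tested genes and each column 1 of the 16 libraries in time order; colour is log2(RPKM + 1) minus that gene's mean over the libraries, red above and blue below. The d0 replicate 1 column is red in nearly every row and the d36 replicate 7 column blue, with the strongest colours in the class II block from Cd74 to H2-DMb1.

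Class I messages were among the most abundant in these cells at every time point. H2-D1, a classical heavy chain, was the 2nd to 4th highest of all entries in every library. It had 5722, 3094, 3237 and 4218 RPKM at d0, 4797, 4093, 4002 and 4785 RPKM at d15, 4055, 4226, 4194 and 3978 RPKM at d22, and 3197, 3176, 4018 and 3936 RPKM at d36. The d0 libraries hold both the highest and the lowest of these values, and all groups overlap. H2-K1, the other classical heavy chain, averaged 1559 ± 506 RPKM at d0, 1686 ± 71.5 at d15, 1514 ± 119.7 at d22 and 1437 ± 249 at d36 (SD, n = 4 each). The ratio of H2-K1 to H2-D1 stayed between 0.337 and 0.458 in the 16 libraries. Together the 15 heavy chain genes made up 1.58% (d36 replicate 7) to 3.79% (d0 replicate 1) of the summed RPKM of all entries.

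Below the classical genes the order by mean level was H2-T23, H2-Q6, H2-Q7, H2-T22, H2-M3, H2-Q5, Cd1d1, H2-Q4, H2-T10 and H2-T24. H2-T23, the Qa-1 molecule recognised by NKG2 receptors, reached 522 to 1575 RPKM. The Q-region genes H2-Q6 and H2-Q7 had 210.1 to 632 and 73.3 to 312 RPKM, and H2-T22 had 66.2 to 151 RPKM. H2-M3, which presents formylated peptides, had 34.3 to 92.0 RPKM, and Cd1d1, which presents lipids to NKT cells, had 12.8 to 35.0 RPKM. H2-Q5 (22.7 to 75.0 RPKM) and H2-T10 (5.64 to 13.2 RPKM) are listed by RefSeq as transcribed pseudogenes, and H2-Q4 had 11.1 to 23.1 RPKM. The ranges of all neighbours in this order overlapped over the 16 libraries. Heavy chain genes are close copies of each other, so reads may have been split between them by the authors' counting, and how such reads were handled is not given in the sources used here. H2-Q1 (0.0715 to 0.296 RPKM), H2-Bl (0 to 0.0846 RPKM) and H2-Q10 (0.124 to 0.974 RPKM) were near 0.

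B2m, the light chain, had 85.1 to 172 RPKM, and the ends of that range were both d36 libraries, replicates 7 and 9. As listed per length it was far under the classical heavy chains: its ratio to H2-K1 was 0.0660 to 0.105. The transcripts behind these entries are not known, so the ratio may not be that of the whole messages. Its mean over the libraries, 127 RPKM, was also under those of H2-T23, H2-Q6 and H2-Q7. It was above that of H2-T22 (101 RPKM) and of the heavy chains lower in the order. Nlrc5, the class I transactivator, had 8.04, 2.61, 10.3 and 14.3 RPKM at d36, against 17.2, 9.59, 11.6 and 9.53 RPKM at d0 (log2 fold change -0.54 ± 0.31, SE, adjusted p = 0.223). Its lowest library was again d36 replicate 7, and the groups overlap.

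With the primary tumour in place (d15) none of the 31 genes passed the test against d0, where 1.18% of all entries did (0.608% higher and 0.573% lower). At an unadjusted p under 0.05, 0 of the 31 were higher and 4 lower, where 1039 and 1314 of all 14303 entries were. The median log2 fold change of the 31 was -0.05, against -0.02 over all entries. After resection (d22) 3 of 31 fell and 0 rose, where 7.10% of all entries fell and 8.09% rose, and the median was -0.14 (all entries 0.02). With metastases (d36) 5 of 31 fell and 0 rose, where 7.37% of all entries fell and 16.6% rose; over all entries 2376 were higher and 1054 lower, and with quantile normalisation 1713 and 1980. Without d0 replicate 1 or d36 replicate 1, 1 member fell. Their median at d36 was -0.38, against 0.04 over all entries, and 29 of 31 were negative. Without d0 replicate 1 the medians were 0.09 at d15, 0.03 at d22 and -0.19 at d36, with 21 of 31 negative at d36. The pan-endothelial markers moved in the same comparison: their median was -0.35, Tie1, Egfl7 and Esam fell and Ramp2 rose among the 12. Their summed RPKM went the other way on average, with 8120 at d0 and 8741 at d36. By library the d36 sums were 7610, 7303, 7999 and 12052 RPKM, against 7461 to 8613 RPKM at d0. In sorted bulk cells a lower share of endothelial cells and less RNA per cell cannot be told apart, and their part in these values was not tested.

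**Figure D2:**
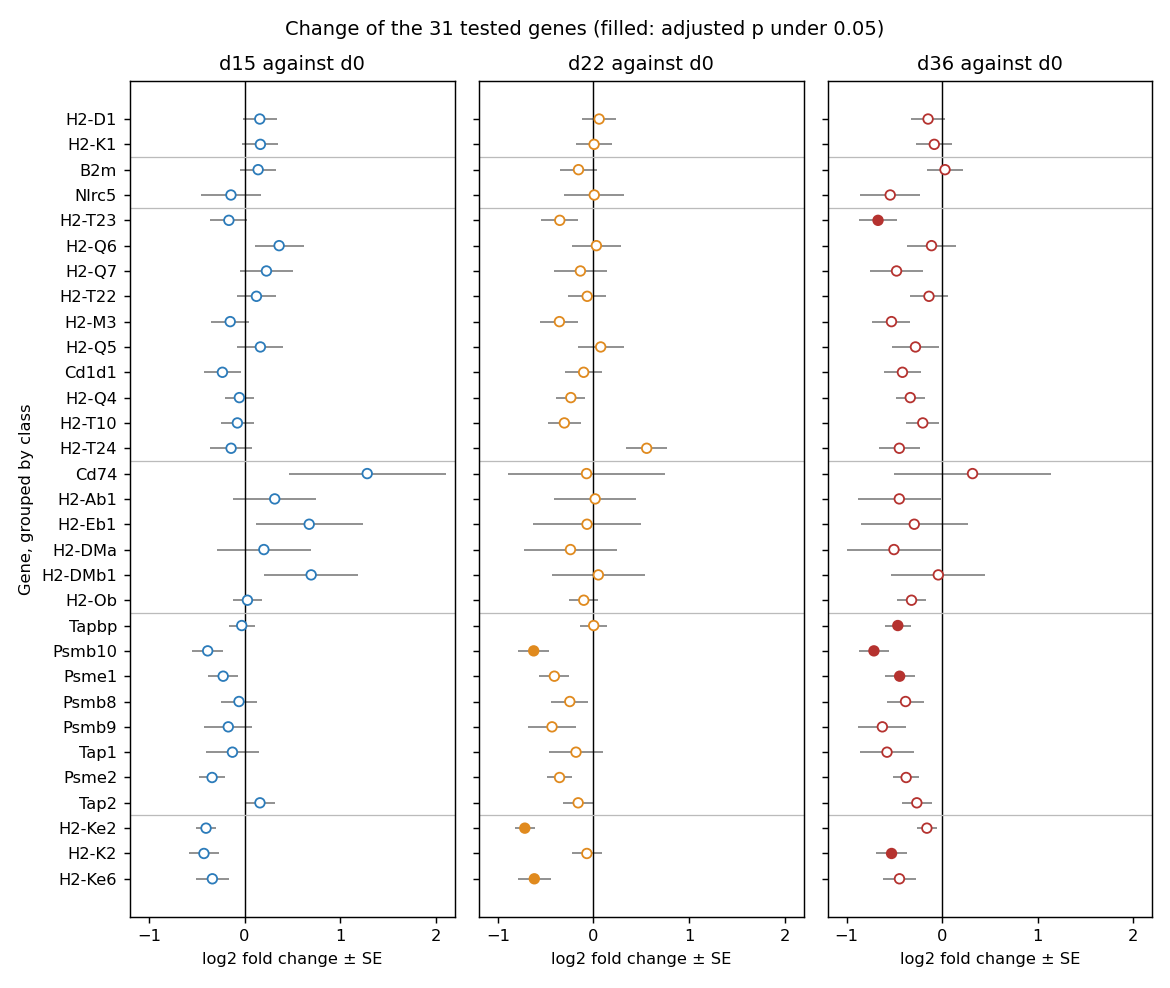
Log2 fold change ± SE against d0 for the 31 tested genes, grouped by class, at d15, d22 and d36; filled points have an adjusted p under 0.05. No point is filled at d15, 3 are at d22 and 5 at d36, all left of 0, and at d36 only B2m and Cd74 lie right of 0; Cd74 has the widest bars.

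H2-T23 was the class I gene that fell at d36. It (chr17:36029977-36032701) had 610.4, 522, 751 and 877 RPKM at d36, against 1575, 822, 1049 and 996 RPKM at d0 (log2 fold change -0.67 ± 0.19, SE, adjusted p = 0.0193). The 2 groups overlap through d36 replicate 9, which lay above d0 replicate 2. The call was lost without d0 replicate 1, where the fold change was -0.49, and without d36 replicate 1 or 7, and in a fit of only the 2 groups. The values at d15 (924, 1059, 913 and 960.5 RPKM) and d22 (851, 939, 960.2 and 665 RPKM) had means between, and neither comparison with d0 passed.

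H2-T24, a low class I gene of the T region, followed another course. It had 3.25, 3.01, 3.37 and 2.50 RPKM at d0, 2.53, 2.55, 2.59 and 2.91 RPKM at d15, 4.40, 4.21, 6.57 and 4.73 RPKM at d22 and 2.16, 0.718, 1.84 and 3.86 RPKM at d36. All d22 libraries lie above all others. In d36 against d22 it fell (log2 fold change -1.01 ± 0.22, SE, adjusted p = 0.00782), in a comparison where 3.07% of all entries fell and 8.73% rose; the call was lost in a fit of only these 2 groups. The rise in d22 against d0 missed the threshold (0.56 ± 0.22, SE, adjusted p = 0.094), although the groups do not overlap; 14.2% of all entries were higher at d22 without overlap. In the authors' deposited table H2-T24 is higher in the d22 column (log2 fold change 0.74, adjusted p = 0.000197), whose comparison group is not named. The other class I genes passed in none of the 6 comparisons under these settings.

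Cd74, H2-Ab1, H2-Eb1, H2-DMa and H2-DMb1 were present in every library and varied widely between libraries. Cd74, the invariant chain, had 3809, 133, 256 and 357 RPKM at d0, 810.2, 1271, 1881 and 848 RPKM at d15, 508, 605, 938 and 132 RPKM at d22, and 464, 214, 1408 and 805 RPKM at d36. It was the 3rd highest of all entries in d0 replicate 1 and the 296th in d0 replicate 2. Inside d0 a single library lies far above the other 3, while the 4 d15 libraries lie together above those 3.

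H2-Ab1, the beta chain of I-A, had 386, 77.9, 110.0 and 135 RPKM at d0, 213, 147, 192 and 179 RPKM at d15, 141, 198, 196 and 85.4 RPKM at d22, and 73.4, 56.7, 177 and 172 RPKM at d36. H2-Eb1 had 321, 38.3, 64.1 and 83.2 RPKM at d0, 144, 136, 164 and 136 RPKM at d15, 93.8, 120.4, 132 and 36.7 RPKM at d22, and 53.1, 30.1, 142 and 127 RPKM at d36. The same libraries were high or low in both genes: d0 replicate 1 was the highest, and d22 replicate 6 and d36 replicate 7 were the lowest of their groups. The peptide loading chains shared this order, with H2-DMa at 105 RPKM in d0 replicate 1 and at 11.4 to 55.2 RPKM in the others, and H2-DMb1 at 83.1 RPKM there and at 11.7 to 55.9 RPKM in the others. The ratio of H2-DMa to H2-Ab1 stayed between 0.175 and 0.319, whereas that of Cd74 to H2-Ab1 ran from 1.55 (d22 replicate 6) to 9.87 (d0 replicate 1).

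**Figure D3:**
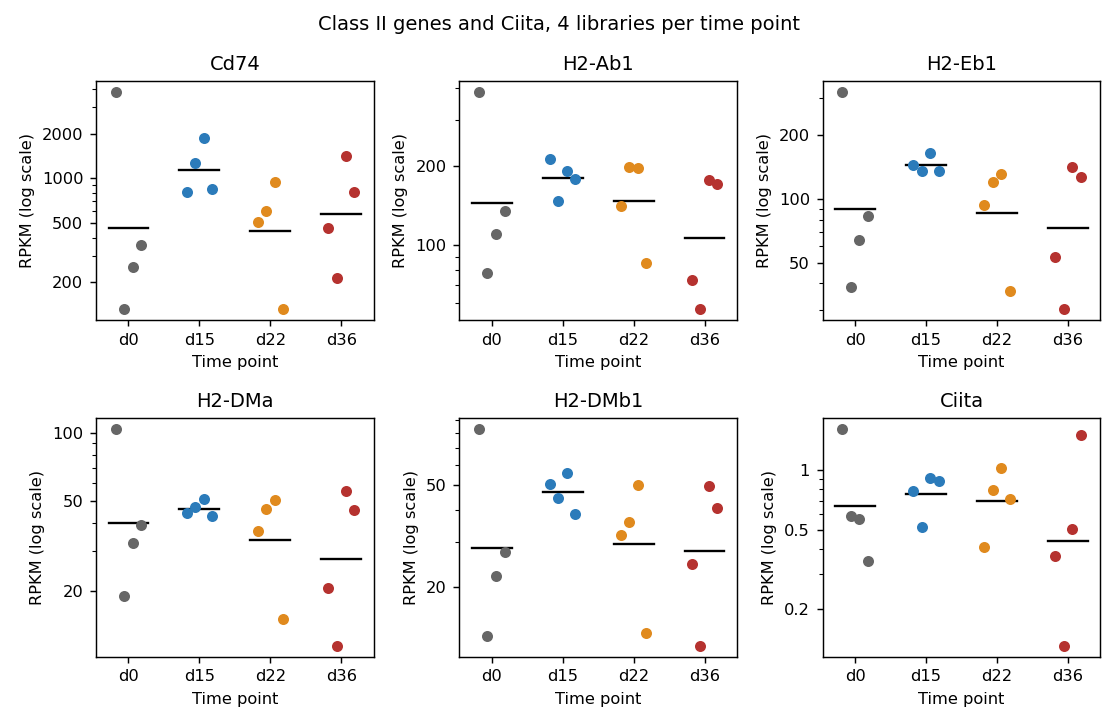
RPKM on a log scale for 5 class II genes and their regulator Ciita; points are libraries (4 per time point) and bars geometric means. The highest library in each panel is a d0 library (replicate 1), the d15 libraries lie within a narrower range in the 5 class II genes, and d22 and d36 spread over the range.

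None of the 6 tested class II genes passed in any comparison. Under other settings Cd74 fell in d22 against d15 (replicate block), and H2-Ob fell in d36 against d0 and against d15 (length and GC trend removed). At d15 all 6 had positive log2 fold changes against d0 (0.03 to 1.28, median 0.50), the largest being Cd74 at 1.28 ± 0.82 (SE, adjusted p = 0.473). On other scales this was smaller or turned: the authors' deposited table gives 0.08 for Cd74 and -0.01 for H2-DMa at d15, and mean RPKM of H2-DMa was 46.2 at d15 and 48.7 at d0. Without d0 replicate 1 the Cd74 value at d15 became 2.29 (adjusted p = 0.106), that of H2-Eb1 1.28 (adjusted p = 0.222) and that of H2-DMb1 1.20 (adjusted p = 0.21), and none passed. At d22 the 6 ranged from -0.24 to 0.05, and at d36 from -0.50 to 0.32. The direction for Cd74 at d36 depends on the scale: the mean of log values gave 0.32 ± 0.82 (SE, adjusted p = 0.811), while mean RPKM was 723 ± 517 at d36 and 1139 ± 1782 at d0, and the authors' deposited table gives -0.47 (adjusted p = 0.776). Cd74 made up 1139 of the mean 1530 RPKM summed over the 10 class II genes at d0. Without Cd74 the mean sums were 392, 425, 324 and 276 RPKM at d0, d15, d22 and d36. The mean log2(RPKM + 1) of the 10 genes was 3.54, 3.91, 3.55 and 3.54 in the same order. For the sum over the 10 genes, the log2 ratio of group means against d0 was 0.09 at d15, -0.82 at d22 and -0.62 at d36. Without d0 replicate 1 it was 1.79, 0.88 and 1.08. The class II direction of the sum at d22 and d36 against d0 turns on d0 replicate 1. Lung epithelium markers were also higher at d15 against d0, with a median log2 fold change of 0.85 and all 9 tested genes positive, although none passed. They summed to 2366 RPKM on average at d15 and 1195 RPKM at d0. In d0 replicate 1, the highest library in class II, they summed to 784 RPKM, the lowest at d0. Their part in the class II values was not tested.

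The summed blood cell markers of d0 replicate 1 lay under or within the range of the other d0 libraries. Its 6 B cell markers summed to 1.24 RPKM, against 1.57 to 3.39 RPKM in the other d0 libraries, its pan-leukocyte markers (8 of 9 found, Lcp1 giving most of the sum in every d0 library) to 37.8 RPKM against 32.2 to 39.3, and its macrophage and dendritic cell markers (8 of 14 found, mostly Lyz2) to 36.6 RPKM against 25.1 to 44.8. Blk, Cd52, Emr1 and Mpeg1 were at 0 there, picked out from these lists after their values were seen. Other genes of each list were above 0 there, as the sums show. Itgax, Flt3, Cd209a and Xcr1 of the macrophage and dendritic cell list were not found, so the sums say little about dendritic cells. The part of blood cells in the class II values of this library was not tested. Its pan-endothelial markers summed to 7461 RPKM, against 8020 to 8613 RPKM. Ciita had 1.62 RPKM there and 0.349 to 0.584 RPKM in the other d0 libraries. The 2nd highest value of Ciita, 1.51 RPKM, was that of d36 replicate 9, whose Cd74 level was 805 RPKM. H2-Ob, the H2-O beta chain, had 0.518 to 2.26 RPKM and followed the order of the other tested class II genes only in part. Its d0 libraries stood in the same order, and d36 replicate 7 was its lowest library too. It was highest in d15 replicate 4, and d22 replicate 6 was not its lowest library at d22.

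Among the class II genes under the filter, H2-Oa and H2-DMb2 had their highest values at d36. H2-Oa, the H2-O alpha chain, corresponded to 0, 18, 6 and 0 reads at d0, 0, 12, 0 and 0 reads at d15, 4, 3, 0 and 19 reads at d22, and 18, 68, 148 and 62 reads at d36. H2-DMb2 corresponded to 31, 14, 24 and 5 reads at d0, 13, 19, 47 and 16 reads at d15, 14, 23, 22 and 26 reads at d22, and 95, 44, 200 and 77 reads at d36. For H2-DMb2 every d36 library but replicate 7 exceeds all earlier ones, and for H2-Oa replicate 1 does not. With no filter on low values both passed against d0 (H2-Oa log2 fold change 0.50, adjusted p = 0.0161; H2-DMb2 0.50, adjusted p = 0.0201), and the authors' deposited table also has both higher in its d36 column (2.65, adjusted p = 0.0117, and 2.04, adjusted p = 0.00605). At the same time point the 6 B cell markers summed to 11.3, 1.504, 43.6 and 13.4 RPKM, against 1.24 to 3.39 RPKM at d0, and Cd79a and Cd79b rose (log2 fold change 1.40, adjusted p = 0.0153, and 1.80, adjusted p = 0.0272). Pan-leukocyte markers summed to 46.0, 85.6, 122 and 44.3 RPKM at d36, against 32.2 to 39.3 RPKM at d0, with 5 of 6 tested genes risen, and the carcinoma-associated markers to 847, 734, 542 and 51.8 RPKM, against 4.11 to 6.43 RPKM at d0. Their part in the H2-Oa and H2-DMb2 values was not tested.

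**Figure D4:**
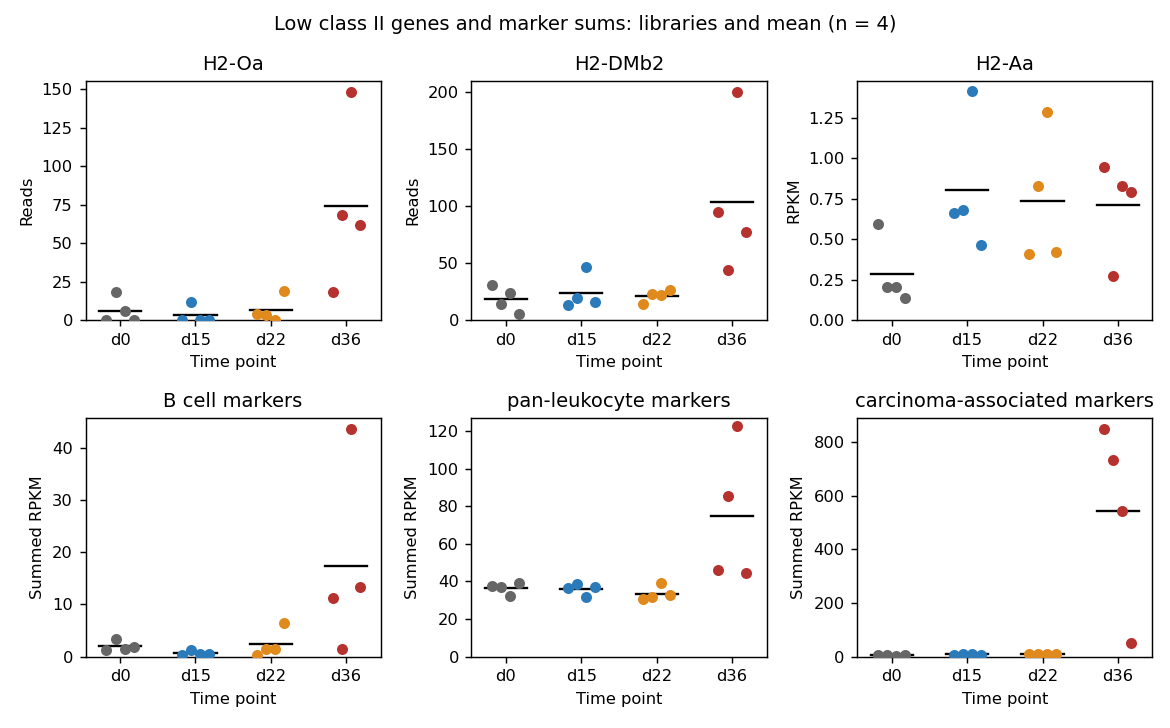
Upper row: reads of H2-Oa and H2-DMb2 and RPKM of H2-Aa; lower row: summed RPKM of B cell, pan-leukocyte and carcinoma-associated markers. Points are libraries and bars means (n = 4 per time point). H2-Oa, H2-DMb2 and the 3 marker sums reach their highest values at d36, where the libraries spread widely; the lowest d36 sum of carcinoma-associated markers, 51.8 RPKM, is that of replicate 9.

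H2-Aa, the alpha chain that pairs with H2-Ab1, was listed at 0.138 to 1.41 RPKM, which is 0.00103 to 0.0129 times the H2-Ab1 value of the same library. The files do not say which transcript the entry covers, so it is not known whether the value stands for the whole message. It had 0.664, 0.680, 1.41 and 0.466 RPKM at d15, against 0.594, 0.203, 0.202 and 0.138 RPKM at d0. The authors' deposited table has H2-Aa higher in all of its columns (1.36 at d15, 1.23 at d22 and 1.23 at d36; adjusted p = 0.0062, 0.00994 and 0.0483), and here the gene lay under the filter; with no filter it passed in none of the 6 comparisons (against d0, 0.48, 0.42 and 0.41 at d15, d22 and d36; limma adjusted p = 0.227, 0.162 and 0.125).

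Of the 8 processing genes, Psmb10, Psme1 and Tapbp fell at d36 against d0, where 7.37% of all entries fell and 16.6% rose. All 8 had negative log2 fold changes at d36 (median -0.45). Psmb10 (chr8:105935728-105938392) had 304, 237, 299 and 297 RPKM at d0, 217, 250.1, 174 and 232 RPKM at d15, 191, 199, 205 and 144 RPKM at d22 and 147, 145, 187 and 219.8 RPKM at d36. No d22 or d36 library reached the lowest d0 library. It fell in d36 against d0 (-0.71 ± 0.16, SE, adjusted p = 0.00444), a call that held without each library in turn, and in d22 against d0 (-0.62 ± 0.16, SE, adjusted p = 0.0156), a call that was lost without d22 replicate 6, with quantile normalisation, with the length and GC trend removed and with the replicate block.

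Psmb10 replaces the constitutive subunit Psmb7, and the mean ratio of the 2 was lowest at d36. It averaged 17.04 ± 1.70 at d0, 13.7 ± 1.12 at d15, 13.2 ± 0.467 at d22 and 9.42 ± 2.09 at d36 (SD, n = 4 each). In exact two-sided permutation tests against d0, p was 0.0571 at d15 and 0.0286 at both d22 and d36, which is the smallest value 4 against 4 libraries allow; adjusted over the 9 ratio tests these are 0.171 and 0.129, so none passed after adjustment. Psmb7 itself had 16.02 to 17.8 RPKM at d0, 14.3 to 18.05 RPKM at d15, 11.46 to 15.2 RPKM at d22 and 17.2 to 20.1 RPKM at d36. The other immunoproteasome ratios did not pass: Psmb8 to Psmb5 averaged 5.54 ± 1.40 at d36 and 5.98 ± 1.41 at d0 (exact permutation p = 0.657), and Psmb9 to Psmb6 averaged 1.101 ± 0.380 at d36 and 1.33 ± 0.287 at d0 (exact permutation p = 0.343, SD, n = 4 each). Without d0 replicate 1, Psmb8 to Psmb5 was higher at d15 and at d22 (exact permutation p = 0.0286 for each, unadjusted). No other omission of 1 library gave a p under 0.05 for this ratio. With d0 replicate 1 left out, the log2 fold change of Psmb8 itself was 0.12 at d15 and -0.07 at d22.

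Psme1, a subunit of the proteasome activator, had 164, 143, 213 and 213 RPKM at d36, against 267, 218, 242 and 259 RPKM at d0, with no overlap (-0.45 ± 0.16, SE, adjusted p = 0.0479). Its call was lost in 10 of the 16 fits that left out 1 library, with no filter, in a fit of only the 2 groups and with the length and GC trend removed. Its partner Psme2 had 17.8, 13.7, 17.2 and 21.6 RPKM at d36, against 25.8, 22.6, 21.9 and 21.4 RPKM at d0, and just missed (-0.38 ± 0.14, SE, adjusted p = 0.0518). The listed value of Psme1 exceeded that of Psme2 in every library, with Psme2 at 0.0799 to 0.109 of it per length. Here too the transcripts behind the entries are not known.

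Tapbp (chr17:33919478-33929290) fell at d36 and did not pass before. It had 335, 251, 261 and 293 RPKM at d0, 289, 257, 249.9 and 318 RPKM at d15, 262, 298, 301 and 276 RPKM at d22, and 184, 169, 258 and 220.3 RPKM at d36. The fall at d36 passed against d0 (-0.46 ± 0.14, SE, adjusted p = 0.0224) and against d22 (-0.47 ± 0.14, SE, adjusted p = 0.0366), and only d36 and d22 did not overlap. Against d0 it was lost without d0 replicate 1 or 4 or d36 replicate 1 or 7, and against d22 without d36 replicate 1 or 7 or any d22 library; both calls were also lost with array weights and in a fit of only the 2 groups.

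The transporter genes did not pass in any of the 6 comparisons. Tap1 had 37.0, 22.6, 48.7 and 50.6 RPKM at d36, against 116, 38.3, 46.7 and 50.9 RPKM at d0 (-0.58 ± 0.28, SE, adjusted p = 0.145), and its d0 mean rests on replicate 1. Tap2 in d36 against d15 had no overlap and missed the threshold (-0.43, adjusted p = 0.0855), and it passed there with quantile normalisation, with array weights and without d0 replicate 1 or d36 replicate 9. Tap2 had 13.6 to 27.7 RPKM, Psmb8 133 to 316 RPKM and Psmb9 36.3 to 129 RPKM over the 16 libraries. Psmb9 and Tap1 share a promoter region, and their ratio stayed between 1.12 (d0 replicate 1) and 2.01 (d15 replicate 4).

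**Figure D5:**
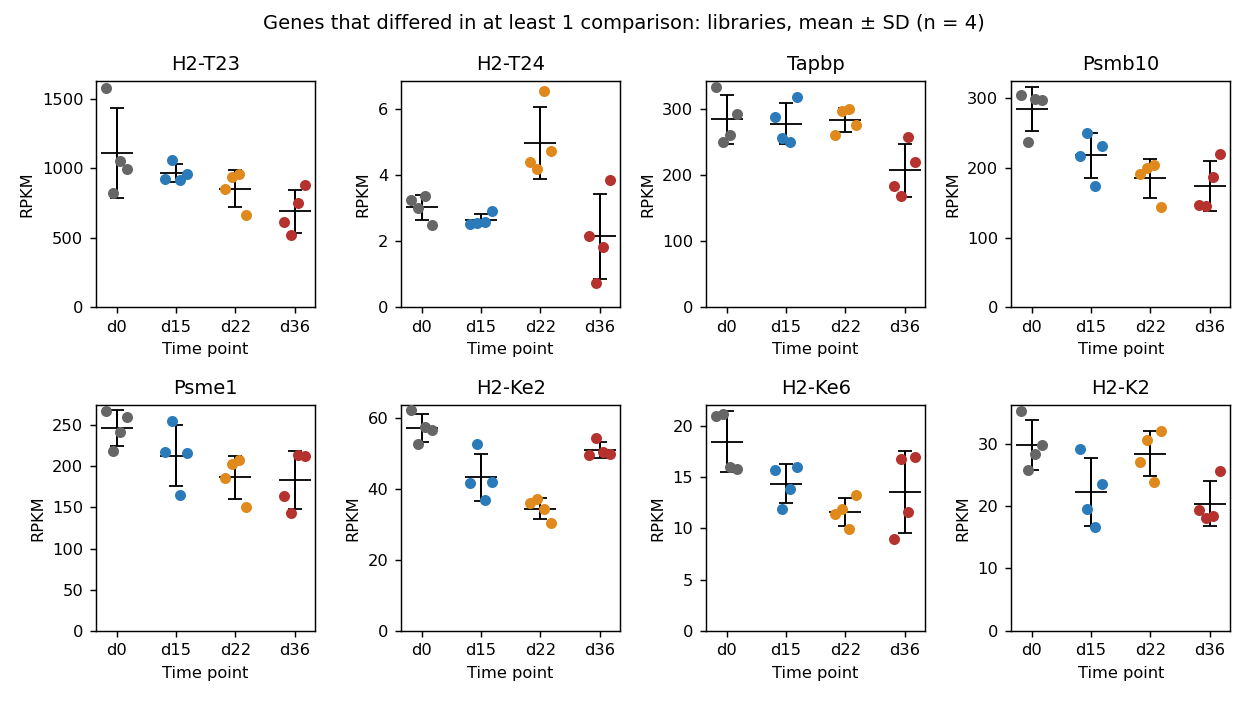
RPKM of the 8 genes that passed in at least 1 of the 6 comparisons; points are libraries, bars mean ± SD (n = 4), axes start at 0. Psmb10 is lower at d22 and d36 than at d0 without overlap, H2-T24 is highest at d22, and H2-Ke2 is lowest at d22 and near its d0 level at d36.

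Entries H2-Ke2, H2-Ke6 and H2-K2 carry H2- symbols and were described apart from the class I, class II and processing genes; the pseudogenes H2-Q5 and H2-T10 were kept with class I. H2-Ke2 (chr17:33938909-33940343) is listed by RefSeq as Pfdn6, a prefoldin subunit that hands unfolded proteins to a chaperonin. It had 62.2, 52.6, 57.6 and 56.7 RPKM at d0, 41.6, 52.6, 37.0 and 42.1 RPKM at d15, 36.1, 37.0, 34.2 and 30.5 RPKM at d22, and 49.5, 54.5, 50.3 and 49.98 RPKM at d36. It fell in d22 against d0 (-0.72 ± 0.11, SE, adjusted p = 0.000824) and rose in d36 against d22 (0.56 ± 0.11, SE, adjusted p = 0.00395), with no overlap in either pair, and both calls held without each library in turn.

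H2-Ke6 (chr17:34026033-34028055), the hydroxysteroid dehydrogenase Hsd17b8, had 11.4, 11.9, 9.97 and 13.2 RPKM at d22, against 20.9, 21.1, 15.97 and 15.7 RPKM at d0 (-0.62 ± 0.17, SE, adjusted p = 0.0247). The groups do not overlap, and the call was lost without d0 replicate 1 or 2 or d22 replicate 1 or 5, and with the length and GC trend removed. H2-K2 (chr17:33974659-33978791), a transcribed pseudogene beside H2-K1, had 19.4, 18.1, 18.4 and 25.7 RPKM at d36, against 35.3, 25.7, 28.3 and 29.8 RPKM at d0 (-0.53 ± 0.16, SE, adjusted p = 0.0232). It lost its call without d0 replicate 1 or 4 or d36 replicate 1, 7 or 8. Without these 3 entries, 0 of the other 28 genes rose against d0 at any time, where 0.608%, 8.09% and 16.6% of all entries did at d15, d22 and d36; 0, 1 and 4 fell, where 0.573%, 7.10% and 7.37% did.

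Between the stages with tumour history few of the 31 genes moved. In d22 against d15 none passed, where 3.06% of all entries did, 2.00% higher and 1.06% lower. At an unadjusted p under 0.05, 2 were higher and 1 lower, where 1801 and 1109 of all 14303 entries were. In d36 against d15 none passed, where 11.5% did, 9.87% higher and 1.64% lower. At an unadjusted p under 0.05, 1 was higher and 5 lower, where 2817 and 920 of all 14303 entries were. In d36 against d22 the 3 genes that passed were H2-Ke2, H2-T24 and Tapbp, where 11.8% of all entries did. The moderated F test over the 3 comparisons with d0 passed for 5 of 31 (H2-Ke2, Psmb10, H2-T24, Tapbp and H2-K2), against 28.7% of all entries. Without overlap against d0, 0 members were higher and 1 lower (Psme2) at d15, where 5.34% and 6.94% of all entries were; 1 higher and 5 lower at d22 (14.2% and 12.3%); and 0 higher and 3 lower at d36 (13.9% and 7.47%). In d22 against d15 these were 1 higher and 4 lower (10.2% and 4.80%), in d36 against d22 they were 1 and 3 (9.49% and 4.11%), and in d36 against d15 they were 0 and 3 (8.94% and 2.31%). Comparisons with d0 share their 4 d0 libraries, so their values are not independent of each other.

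Of 14 tested further antigen presentation genes 4 rose and 3 fell against d0, where 16.6% of all entries rose and 7.37% fell. Ctss, the protease that trims the invariant chain, had 3.68, 5.07, 17 and 2.13 RPKM at d36, against 0.504, 0.0881, 0.111 and 1.81 RPKM at d0 (2.07 ± 0.39, SE, adjusted p = 0.00157). Canx, Ctsl and Lgmn also rose and Cd40, Fcgrt and Tapbpl fell. Erap1, which trims class I peptides, had 17.2, 16.8, 19.6 and 13.6 RPKM at d22, against 14.3, 12.1, 11.4 and 11.5 RPKM at d0 (0.42 ± 0.13, SE, adjusted p = 0.0412), and did not pass at d36 (0.26, adjusted p = 0.164). At d22 Canx rose and Fcgrt fell as well, and at d15 none of the 14 passed.

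Of 22 tested MHC promoter factors and interferon-gamma signalling genes, 4 rose and 1 fell at d36, shares close to those of all entries (16.6% and 7.37%). The interferon-inducible chemokine Cxcl10 had 2.92, 8.00, 11.46 and 1.22 RPKM at d36, against 0.522, 0.595, 0.417 and 0.424 RPKM at d0 (1.91 ± 0.37, SE, adjusted p = 0.00172), and Irf8, a factor of myeloid and B cells, rose by 1.35 ± 0.28 (SE, adjusted p = 0.00269). Rfx5, a subunit of the complex on MHC promoters, rose by 0.39 ± 0.13 (SE, adjusted p = 0.0335), its partner Rfxank fell by 0.42 ± 0.09 (SE, adjusted p = 0.0041), and Creb1 rose. Irf1, an interferon-induced transcription factor, did not pass at d36 (0.27, adjusted p = 0.15). The leukocyte marker values given above moved in the same libraries as Ctss, Cxcl10 and Irf8, all highest in d36 replicate 8 or 7, and their part was not tested. At d22 Jak2 rose and Rfxank fell, and at d15 none of the 22 passed. Of the 4 constitutive proteasome genes, Psmb5 and Psmb6 fell at d22, Psmb6 fell and Psme3 rose at d36, and none passed at d15.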

How the data were processed

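RNA-seq of 16 libraries of sorted lung endothelial cells, 4 per time point, was analysed. Per the labels' protocols, total RNA (10 ng) was purified by PicoPure and amplified by SMARTer Ultra Low. The authors deposited RPKM values for 17715 entries and, per the file headers, their own log2 fold change and adjusted p-value at each later stage. The submitters' processing notes name STAR, DESeq2 and mm10; versions, annotation, the sort's gate and the handling of multiply aligned reads are not given in the sources used here. RPKM is scaled to each library's total, so differences are differences of share.

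Members and lists were chosen with earlier results of these data known. Every member is described. From the other lists the rule names genes that passed with a log2 change of at least 1, and Irf1, Rfx5, Erap1 and Ctss, with 1 further gene not reported here; the other genes named, Igtp and Gbp4 among them, were chosen after their values were seen. One limma 3.58.1 fit (R 4.3.3) with an intensity trend covered log2(RPKM + 1) of the 14303 entries that met the minimum, with 6 contrasts and no covariate; the script was tested on simulated data. Subunit ratios were tested by exact permutation. Reads of 6 low genes were recovered from the value of 1 read (tolerance 0.1 read). Promoters are RefSeq's for GRCm38.p6, the assembly behind mm10.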

Additional observations from a re-analysis of the deposited data

Results flagged for a closer look

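Within the groups of 4 libraries, 8 of 152 groups had a highest or lowest library farther from the rest than Dixon's 95% critical value for 4 values allows. Chance alone marks about 1 group in 20, and the count is near that share. The groups are therefore listed as a description and not as results about the genes. At d0, replicate 1 was high for B2m (167 RPKM, the others 109 to 116), for H2-Q10 (0.52 RPKM, the others 0.124 to 0.178) and for H2-Aa (0.594 RPKM, the others 0.138 to 0.203), and replicate 2 was low for Psmb10 (237 RPKM, the others 297 to 304). At d15, replicate 6 was high for H2-T24 (2.91 RPKM, the others 2.53 to 2.59), and replicate 4 for H2-Oa (0.102 RPKM, the others at 0). At d22, replicate 6 was low for H2-M3 (44.0 RPKM, the others 64.1 to 67.8). At d36, replicate 8 was high for H2-Q10 (0.974 RPKM, the others 0.165 to 0.225).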

How the results depend on the processing

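Psmb10 in d36 against d0 and H2-Ke2 in d22 against d0 and d36 against d22 passed in every setting run. Members lower at d36 against d0 (5) became 10 with quantile normalisation, 8 with array weights, 9 with the length and GC trend removed (6 over those entries untouched, a setting chosen after seeing the data), 2 in a fit of only the 2 groups, and 1 to 13 without 1 library: 13 without d36 replicate 9, 1 without d0 replicate 1 or d36 replicate 1, 2 without d0 replicate 4 or d36 replicate 7. The lower calls over all entries moved with the setting too. They were 1054 in the main fit, 1980 with quantile normalisation, 2084 with array weights and 528 with only the 2 groups. With the trend removed they were 1463 of 9611 (741 untouched). They were 1898 without d36 replicate 9, 872 without d0 replicate 1 and 703 without d36 replicate 1. Members lower at d36 against d0 under some other setting, leaving out a library aside, were H2-D1, H2-Q4, H2-M3, H2-T24, Cd1d1, H2-Ob, H2-Ke6 and Psme2. With no filter, 2 were higher at d36 against d0, 3 against d22 and 2 against d15, where 3131, 1863 and 2105 of 17645 entries were. At d22 against d0, 5 were lower and 1 higher with array weights or only 2 groups, and 1 lower with the trend removed. Over all entries 1747 were lower with array weights, 1464 with 2 groups and 487 of 9611 with the trend removed, against 1016 in the main fit. Without 1 library 0 to 1 members were higher and 2 to 3 lower. At d15 against d0, 1 was lower with array weights (367 of all entries, 82 in the main fit) and 0 to 1 without 1 library. In d36 against d22, 0 were lower with 2 groups (57 of all entries, 439 in the main fit), and 1 to 4 without 1 library. In d22 against d15, 1 was higher with array weights or 2 groups (852 and 541 of all entries, 286 in the main fit) and 0 to 1 without 1 library. In d36 against d15, 1 was lower with no filter, median ratio scaling, array weights or the untouched length and GC entries, 2 with quantile normalisation or the trend removed, and 0 to 5 without 1 library (0 to 1 higher). Over all entries, in the same order, 293, 369, 533, 200, 574 and 508 were lower, against 234 in the main fit.

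Same-numbered replicates did not deviate together (r from -0.111 to 0.206), so numbers were not taken to pair libraries. The replicate block left Psmb10 at d22 against d0 with an adjusted p of 0.0535 and gave 1 higher (H2-T24) and 1 lower member (Cd74) in d22 against d15. With d36, d0 and d22 share 1 number and d15 none, so no paired fit was made there. Causes were not tested.

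Without 1 library, log2 differences of Psmb8/Psmb5 against d0 ranged from 0.11 to 0.38 at d15, 0.25 to 0.52 at d22 and -0.25 to 0.044 at d36. Those of Psmb9/Psmb6 ranged from 0.016 to 0.25 at d15, -0.030 to 0.20 at d22 and -0.52 to -0.12 at d36, and those of Psmb10/Psmb7 from -0.38 to -0.26 at d15, -0.42 to -0.31 at d22 and -1.01 to -0.78 at d36. The class II log2 ratio of sums ranged from -0.26 to 1.79 at d15, -1.16 to 0.88 at d22 and -1.09 to 1.08 at d36. Depth limits the genes under 1 RPKM.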
